A study of Homo sapiens with 6 samples.

Results

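Eukaryotic translation initiation factors (gene symbols EIF1 to EIF6) were followed at the transcript level in B4G12 cells, an established human corneal endothelial cell line, after siRNA against NAMPT. Members were taken by name: every gene of the deposited table whose symbol begins with EIF1 to EIF6, without hyphenated readthrough or antisense genes, without numbered pseudogenes and without EIF1AY, while EIF4EBP1, EIF4EBP2 and EIF4EBP3 were kept. This gave 55 of the 50868 genes listed, and 53 of them had enough reads to be tested. The study held 6 RNA-seq libraries from mRNA of this line. In 3 of them the cells had received a control siRNA (siControl, genotype given as WT) and in 3 an siRNA against NAMPT (siNAMPT, genotype given as NAMPT knockdown), so that all 6 had been transfected with siRNA. The siRNA sequence, its dose and the time of harvest are not given in the labels used here. Whether the 3 libraries of a group are separate cultures is not stated, and every p-value below rests on their spread alone, which could be technical.

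Initiation is the step at which the ribosome finds the start codon of an mRNA. The factor eIF2 brings the initiator tRNA to the small ribosomal subunit, eIF3 holds the small subunit and the mRNA together, and eIF4F (the cap-binding eIF4E, the scaffold eIF4G and the helicase eIF4A) loads the capped mRNA. eIF5 and eIF5B then release the factors and join the large subunit. The pathway is throttled where kinases phosphorylate eIF2, whose recycling by eIF2B then slows, and where 4E-binding proteins, released by low mTORC1 activity, sequester eIF4E. NAMPT itself makes nicotinamide mononucleotide, the precursor of NAD in the salvage pathway.

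NAMPT, the targeted gene, was read first. Its level in CPM (counts set to a common library size, with scaling by the trimmed mean of M values) was 164, 170 and 184 in siControl and 26.7, 29 and 29.6 in siNAMPT. All 3 siNAMPT libraries lay far below the lowest siControl library, with a log2 fold change (siNAMPT minus siControl, as throughout) of −2.60 (SE 0.07) and adjusted p = 2.6e-06. An exact two-sided permutation test over the 6 libraries gave p = 0.1, the smallest it allows. The libraries held 19510796 to 22364717 counts, and the groups separated along the first principal component, which carried 60.5% of the variance. Of 16 markers of corneal endothelium 9 were below 1 CPM in every library, among them SLC4A4 and COL8A2. The markers KRT12 and PAX6 were the only ones of 12 epithelial markers below that level, and the epithelial markers together summed to 5853 to 6333 CPM in siControl and 6451 to 7324 CPM in siNAMPT. They did not move together: 3 of the 10 tested rose and 4 fell, and the sum followed KRT15 (266 to 958 CPM) and KRT5 (1929 to 2292 CPM), while KRT14, KRT6A, EPCAM and DSG3 fell. Vascular markers (3 of 5 below 1 CPM everywhere, PECAM1, KDR and TEK) summed to 9.69 to 11.4 and 13.4 to 15.3 CPM, and stromal markers (4 of 5) to 0.425 to 0.875 and 2.08 to 2.51 CPM. The part of these marker shifts in the results was not tested. Fewer cells of a type and less RNA per cell cannot be told apart in such bulk libraries.

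Among the 53 initiation factor genes tested, 4 rose and 18 fell in siNAMPT at an adjusted p of 0.05 in edgeR's quasi-likelihood test, and 31 were not called. The 4 that rose were EIF3F, EIF4A2, EIF4EBP2 and EIF4E2. The deepest falls were those of EIF5A2, EIF3A, EIF2B4, EIF2B2, EIF2S1 and EIF4G2. Over all 15213 genes tested, 42.7% were called, 20.8% higher and 21.9% lower. The share of initiation factors called in either direction (41.5%) was thus close to the background, while 7.55% of them were higher and 34.0% lower. Their median log2 fold change was −0.13, beside 0.00 over all genes, and 40 of 53 lay below zero. The libraries of the groups did not overlap for 31 of the 53, against 54.9% of all genes tested. These transcripts are abundant, with a median of 137 CPM in siControl against 21.2 CPM over all genes tested. The plot of fold changes by complex shows a few members far from zero and the rest close to it.

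**Figure D1:**
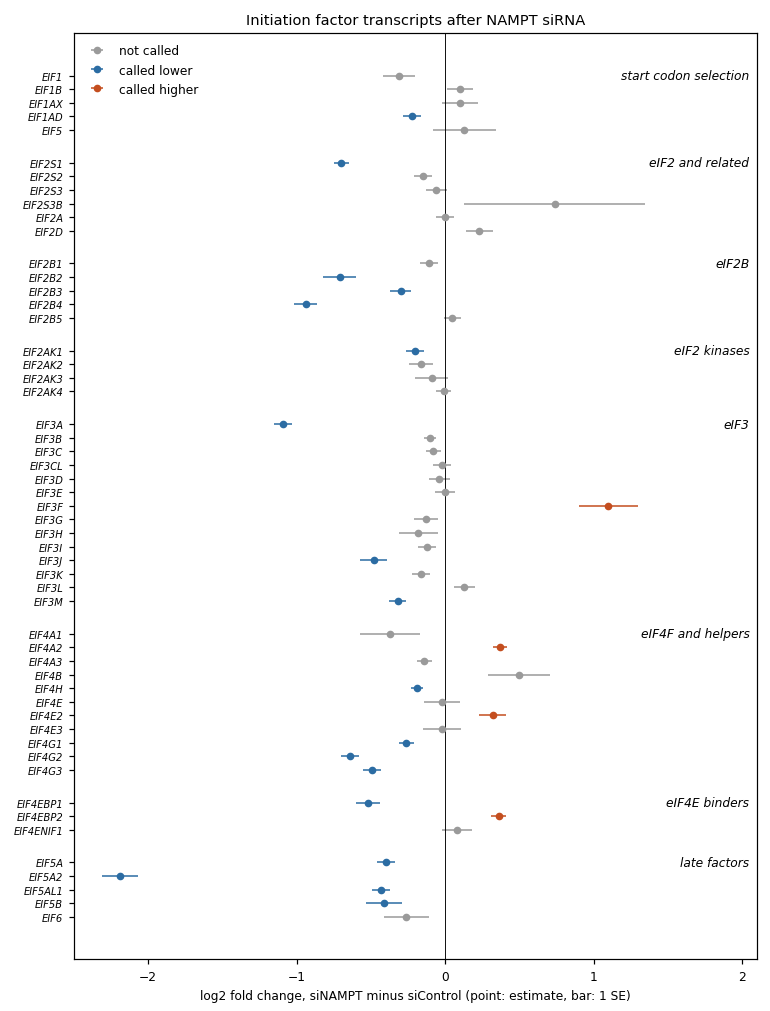
Log2 fold change (x axis, siNAMPT minus siControl) with 1 standard error for the 53 initiation factor genes tested, grouped by complex on the y axis and coloured by edgeR call. EIF5A2 at −2.19, EIF3A at −1.09 and EIF3F at 1.10 stand farthest from zero.

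Sequences are shown here for the members that moved most or that share a feature. The letters TACCATA in the 3′ UTR are a feature that genes lower in these libraries were already known to carry more often, so that its presence in lower members is no independent support. It was searched on the transcript strand of 1 GENCODE 29 transcript per gene. The 29 bases around each match (GRCh38, 5′ to 3′ on the transcript strand, the 7 letters in capitals) are shown because these are the only initiation factors among the 53 tested with it, and because EIF4E, with the most matches, differs from the rest in its change.
EIF5A2, chr3:170892974-170893002, minus strand: tggtattgaagTACCATAtttaagttgaa
EIF3A, chr10:119035537-119035565, minus strand: tttgaggtattTACCATAaactaaattta
EIF2S1, chr14:67386231-67386259, plus strand: aggtagtctctTACCATAtaaggaataag
EIF4E, chr4:98876597-98876625, minus strand: agccttcctacTACCATAgtttagagttc
EIF4E, chr4:98875335-98875363, minus strand: ttaacatttttTACCATActgtagtattt

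EIF5A2, EIF3A and EIF2S1 were 3 of the 5 members with the largest called falls. EIF4E, which holds both of its matches in a 3′ UTR of 9344 bases in the transcript searched, had a log2 fold change of −0.02 and was not called. Its matches lie at positions 4414 and 5676 of that 3′ UTR. The median length of its annotated coding transcripts is 1114.5 bases, so the shorter forms cannot hold them. Which form these cells express was not measured. In all, 4 of 53 initiation factors (7.55%) held the word, beside 922 of 12240 tested genes with a 3′ UTR (7.53%). Of those 922 genes 48.9% were lower and 9.65% higher, with a median of −0.33, and of the 11318 without the word 23.0% were lower and 21.8% higher. Of the 49 initiation factors without it 15 were lower and 4 higher, with a median of −0.12. The sets with and without the word were not matched for the length of the 3′ UTR. That length was 2369 to 9344 bases in the 4 members with the word, and its part in these shares was not tested. The 6 letters ACCATA, which lie within the word, were found in 12 members (22.6%), 5 of them lower and 1, EIF4EBP2, higher. This is near the share over all genes, of which 2661 of 12240 (21.7%) held these letters, with 40.1% of them lower and 14.7% higher.

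The second feature is a start of the transcript rich in pyrimidines. mRNAs of ribosomal proteins and of several translation factors begin with a C followed by an unbroken run of C and T, the 5′ terminal oligopyrimidine motif, through which mTORC1 and LARP1 control their translation and stability. The first 20 bases from the RefSeq start (GRCh38.p14) are shown for called members and for EIF4B, with the opening run in capitals.
EIF3F, chr11:7987337-7987356, plus strand: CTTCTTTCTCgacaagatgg
EIF4A2, chr3:186783577-186783596, plus strand: CTTTTCagtcgggcgctgag
EIF3M, chr11:32583831-32583850, plus strand: CTTTTCCggtcggcgtggtc
EIF4B, chr12:53006456-53006475, plus strand: CTTTTgcgttctctttccct

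A C at the start followed by at least 4 letters that are C or T, read on the transcript strand only, was found in 10 of the 44 tested initiation factors with an entry in the RefSeq promoter table (46 of all 55 had one). This is 22.7%, beside 7.44% of 10513 tested genes and 4.07% of all 35116 entries. Of these 10, EIF3F and EIF4A2 were higher and EIF3M was lower, and their median log2 fold change was 0.11. The others were EIF4B, EIF2A, EIF2D, EIF2S3, EIF2S3B, EIF3D and EIF3K. Of the 34 members without such a start 2 were higher (5.88%) and 14 lower (41.2%), with a median of −0.17. Over all tested genes with such a start 20.7% were higher and 20.2% lower, with a median of 0.01. Over those without it 21.1% were higher and 24.2% lower, with a median of −0.01. Members without an entry are in neither set. Those of them that were called were EIF2AK1, EIF3A and EIF4EBP1, each lower. Annotated starts are not measured starts in these cells, and a match is a description only.

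Of the 5 genes of start codon selection 1 was called, beside 42.7% of all genes tested. The groups did not overlap for 3 of the 5, against 54.9% of all genes tested. EIF1, which guards against initiation at wrong codons, was at 237, 184 and 194 CPM in siControl and 177, 172 and 146 CPM in siNAMPT. The siNAMPT libraries were all below the siControl libraries, but the first siControl library stood well above the other two and the change was not called (log2 −0.31, SE 0.11, adjusted p = 0.0549). It passed with DESeq2 (adjusted p = 0.0323) and without siControl replicate 2 (adjusted p = 0.0435). Its paralog EIF1B was at 14.3 to 15.2 CPM and 15.3 to 16.8 CPM (log2 0.10), and overlaps the antisense gene EIF1B-AS1, which rose from 0.638 to 1.46 CPM. EIF1AX, which works beside EIF1 in scanning, had a log2 fold change of 0.10. EIF1AD, a gene with an eIF1A-like domain, was the 1 gene of these 5 called lower (log2 −0.22, adjusted p = 0.0227), and it lost the call without any 1 of the siControl libraries or without siNAMPT replicate 3 (adjusted p 0.0593 to 0.0770).

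EIF5, the GTPase activator that completes start codon recognition, was at 130, 127 and 133 CPM in siControl and 108, 120.4 and 198 CPM in siNAMPT. The groups overlapped, since siNAMPT replicate 3 lay above all siControl libraries while the other 2 lay below them. The log2 fold change of 0.13 (SE 0.21, adjusted p = 0.6559) turned to −0.19 (adjusted p = 0.0919) without that library.

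Of the subunits of eIF2, the alpha subunit alone was called. EIF2S1, which carries the serine that the stress kinases phosphorylate, was at 161, 161 and 158 CPM in siControl and 95.2, 101 and 99.2 CPM in siNAMPT. The libraries within each group lay close together and the groups were far apart, with a fall of 38.5% (log2 −0.70, SE 0.05, adjusted p = 7.3e-05). EIF2S2, the beta subunit, was at 150.4 to 158 CPM and 128 to 145 CPM (log2 −0.15, adjusted p = 0.1027). EIF2S3, the tRNA-binding gamma subunit, was at 147 to 162 CPM and 139 to 159 CPM (log2 −0.06, adjusted p = 0.5569). Per kilobase of the median annotated coding transcript, the ratio of EIF2S2 to EIF2S1 was 1.24 ± 0.0302 in siControl and 1.83 ± 0.0773 in siNAMPT (SD, n = 3 each), and that of EIF2S3 to EIF2S1 was 1.15 ± 0.073 and 1.79 ± 0.0892. Neither ratio overlapped between the groups. The size of such a ratio depends on the length assigned to each gene, whereas its change between groups does not. EIF2A and EIF2D, which can deliver tRNA to the ribosome apart from eIF2, had log2 fold changes of 0.00 and 0.23 and were not called, though EIF2D passed without siNAMPT replicate 3 (log2 0.30, adjusted p = 0.0466). EIF2S3B, a near copy of EIF2S3 whose first 20 bases are the same letters in the RefSeq table, was below 5 CPM in every library.

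eIF2B, the exchange factor that recharges eIF2 with GTP, had 3 of its 5 subunit genes lower and none higher, beside 21.9% and 20.8% of all genes tested. Counts for a complex of so few genes describe its members only. EIF2B4, the delta subunit, was at 28.9, 29.5 and 30.7 CPM in siControl and 15.8, 14.2 and 16.3 CPM in siNAMPT. These values were 47.9% lower on average, with no overlap (log2 −0.94, SE 0.08, adjusted p = 1.41e-04). EIF2B2, the beta subunit, was at 50.4, 42.0 and 37.7 CPM in siControl and 26.8, 25 and 27.8 CPM in siNAMPT. The siControl libraries spread widely, but the lowest of them was still above the highest siNAMPT library (log2 −0.71, SE 0.11, adjusted p = 0.0023). EIF2B3, the gamma subunit, had 26, 26 and 25 CPM in the siControl libraries and 19.7, 21.4 and 21.4 CPM in those of siNAMPT, so the groups did not overlap. It was called lower (log2 −0.30, adjusted p = 0.0127) but missed the threshold without siControl replicate 2 (adjusted p = 0.0509). EIF2B1 (log2 −0.11) and the catalytic EIF2B5 (log2 0.05) were not called. The locus listed for EIF2B5 spans many other genes, EIF4G1 among them, so reads counted for it may not all be its own.

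Of the 4 kinases that phosphorylate eIF2, EIF2AK1 (HRI, activated by heme shortage and mitochondrial stress) was the only one called with all libraries, and its change was small. It was at 207, 217 and 205 CPM in siControl and 171, 189 and 188 CPM in siNAMPT. The groups did not overlap (log2 −0.20, SE 0.06, adjusted p = 0.0268), but 3 fits without a library missed the threshold, those without siControl replicate 1 (adjusted p = 0.0604), siControl replicate 2 (0.0964) or siNAMPT replicate 1 (0.0551). EIF2AK2 (PKR, the sensor of double-stranded RNA) was at 121, 119 and 119.6 CPM and at 95.7, 120.0 and 106 CPM. Its groups overlapped through siNAMPT replicate 2, and without that library it was called lower (log2 −0.25, adjusted p = 0.0357). EIF2AK3 (PERK, the sensor of the endoplasmic reticulum) was at 23.5, 21.3 and 24.2 CPM and at 18.6, 23.6 and 22.6 CPM. EIF2AK4 (GCN2, the sensor of uncharged tRNA) was at 106, 104 and 107 CPM and at 102, 109 and 104 CPM. Both overlapped between the groups and were not called (log2 −0.09 and −0.01).

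Of the 14 genes of eIF3 1 rose, 3 fell and 10 were not called. This is 7.14% higher and 21.4% lower, beside 20.8% and 21.9% of all genes tested. Their median log2 fold change was −0.11, and 12 of the 14 lay below zero. The groups did not overlap for 7 of them, against 54.9% of all genes tested. EIF3A, the largest subunit and a scaffold of the complex, was at 373, 386 and 409 CPM in siControl and 172, 183 and 193 CPM in siNAMPT. The groups were separated by a wide gap, with a fall of 53.1% (log2 −1.09, SE 0.06, adjusted p = 2.8e-05). Its locus (chr10:119033670-119080823, GRCh38) overlaps that of NANOS1, whose counts rose from 6.65 to 25.8 CPM.

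EIF3F, a subunit that has been described as a deubiquitinase, moved the opposite way to EIF3A. It was at 87.5, 87.8 and 85.4 CPM in siControl and 226, 208 and 125 CPM in siNAMPT. All siNAMPT libraries were above all siControl libraries, but siNAMPT replicate 3 stood far below the other 2 (log2 1.10, SE 0.20, adjusted p = 0.0038). Leaving out a siNAMPT library gave log2 values of 0.94, 1.02 and, without replicate 3, 1.32. The pseudogene EIF3FP3, with which it can share reads, was at 53.9, 56.8 and 51.4 CPM and at 79.5, 68.0 and 70.7 CPM, so it rose too (log2 0.43, adjusted p = 0.0043). With the counts of its copies added to those of EIF3F the log2 fold change was 0.88 (adjusted p = 0.0028).

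EIF3J, a loosely held subunit at the mRNA entry channel, was at 83.0, 77.0 and 75.2 CPM in siControl and 63.3, 52.3 and 52.7 CPM in siNAMPT, without overlap (log2 −0.48, SE 0.09, adjusted p = 0.0047). EIF3M, a subunit of the core octamer, was at 179.7, 196 and 177 CPM and at 139, 151 and 152 CPM, again without overlap (log2 −0.32, SE 0.06, adjusted p = 0.0061). The 10 subunit genes not called ranged from −0.18 (EIF3H) to 0.13 (EIF3L) in log2 fold change. Those with no overlap between groups were EIF3B, EIF3C and EIF3K. EIF3K passed without siNAMPT replicate 1 (log2 −0.21, adjusted p = 0.0175) and with limma on log2(FPKM + 1) (adjusted p = 0.0497) but not on log2(FPKM + 0.1) (0.0505). EIF3L passed as higher without siNAMPT replicate 3 (log2 0.20, adjusted p = 0.0483). EIF3C and EIF3CL are near-identical copies that can exchange reads, and both stayed uncalled.

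As a level per kilobase of the median coding transcript, EIF3A was at 0.54 ± 0.0324 times the median of 12 other eIF3 subunit genes in siControl and at 0.256 ± 0.0339 times in siNAMPT (SD, n = 3 each; EIF3CL was left out). On the same scale EIF3F went from 69.3 to 149 CPM per kb, and so from among the lowest subunits to the middle of the range, which was 50.6 CPM per kb (EIF3J) to 224 CPM per kb (EIF3K) in siControl. The highest, EIF3K and EIF3I, were at 224 ± 1.13 and 220.4 ± 9.04 CPM per kb in siControl (SD, n = 3 each). In siNAMPT they were at 200.2 ± 12.5 and 202 ± 9.6 CPM per kb. EIF3K did not overlap between the groups while EIF3I did, and neither was called. The plot of subunit levels shows the separate movement of the eIF3 genes.

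**Figure D2:**
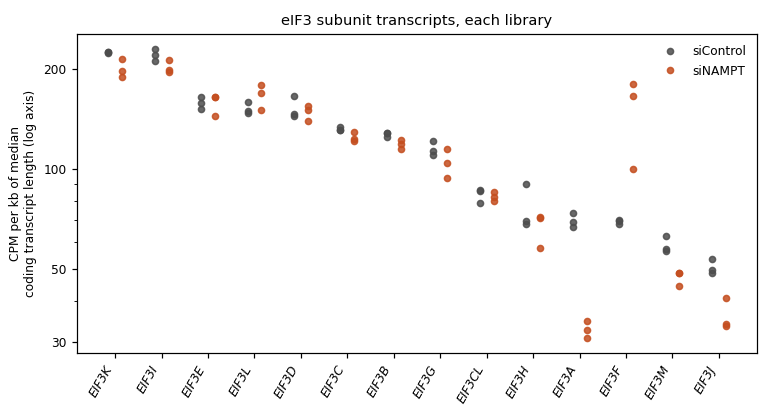
Level of each eIF3 subunit gene in every library (y axis, CPM per kilobase of the median annotated coding transcript length, log axis), ordered by the siControl mean. EIF3A dropped from 69.9 to 32.8 and EIF3F climbed from 69.3 to 149, while most others overlapped or lay close together.

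In eIF4F and its helpers 2 of 11 tested genes rose and 4 fell. This is 18.2% higher and 36.4% lower, beside 20.8% and 21.9% of all genes tested. The 3 scaffold genes all fell. EIF4G1, the main eIF4G, was at 1377, 1423 and 1301 CPM in siControl and 1168, 1122 and 1124 CPM in siNAMPT (log2 −0.26, SE 0.05, adjusted p = 0.0036). EIF4G2, also known as DAP5, which lacks the eIF4E-binding part and serves cap-independent initiation, was at 628, 697 and 681 CPM and at 405, 431 and 452 CPM. Its fall of 35.8% was larger (log2 −0.64, SE 0.06, adjusted p = 2.31e-04). EIF4G3 was at 111, 114 and 121 CPM and at 79.4, 85.8 and 81.7 CPM (log2 −0.49, SE 0.06, adjusted p = 7.62e-04). None of the 3 overlapped between groups, and whether their falls differ from each other was not tested.

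Of the helicase paralogs EIF4A1 and EIF4A2 the latter was called. EIF4A2, which besides initiation has been linked to repression by microRNAs, was at 279, 284 and 293 CPM in siControl and 372, 355 and 374 CPM in siNAMPT. The groups were well apart (log2 0.37, SE 0.05, adjusted p = 8.59e-04). EIF4A1, the main helicase, was at 374, 211 and 307 CPM and at 259.7, 195 and 237 CPM, with wide spread and overlap (log2 −0.37, SE 0.20, adjusted p = 0.1791). The overlapping readthrough gene SENP3-EIF4A1 was at 91.1, 361 and 108 CPM and at 92.2, 233 and 114 CPM, and was thus highest in replicate 2 of both groups, where EIF4A1 was lowest. With the readthrough gene and 12 other copies added, a setting chosen after the data were seen, EIF4A1 summed to 586, 684 and 539.7 CPM in siControl and 455, 518 and 441 CPM in siNAMPT. The summed values no longer overlapped and were called lower (log2 −0.36, SE 0.10, adjusted p = 0.0222). Without siControl replicate 2 the gene itself was called (log2 −0.57, adjusted p = 0.0213). The ratio of EIF4A2 to EIF4A1 per kilobase was 0.877 ± 0.263 in siControl and 1.39 ± 0.171 in siNAMPT (SD, n = 3 each), without overlap. This ratio used the counts of EIF4A1 alone. The readthrough gene and the other copies held 36.2 to 69.2% of the summed EIF4A1 counts, depending on the library. The ratio therefore does not show which of the 2 helicase genes was higher in either group. EIF4A3, the helicase of the exon junction complex, had log2 −0.14 (adjusted p = 0.0669) and passed without siNAMPT replicate 1 (log2 −0.17, adjusted p = 0.0379).

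EIF4B and EIF4H stimulate the helicase. EIF4B was at 251, 452 and 459.6 CPM in siControl and 537, 563 and 542 CPM in siNAMPT. All siNAMPT libraries were higher, but siControl replicate 1 held far fewer reads of this gene than the other 2, and the change was not called (log2 0.50, SE 0.21, adjusted p = 0.0879). It was called without that library, at a smaller size (log2 0.26, adjusted p = 0.0108). It was also called with DESeq2 (log2 0.50, adjusted p = 0.0294) and with its 9 copies added (log2 0.44, adjusted p = 0.0453). Its pseudogenes did not share the low value: EIF4BP7 was at 98.8, 99.5 and 98.9 CPM in siControl and 118, 125 and 117 CPM in siNAMPT (log2 0.28, adjusted p = 0.0052), and EIF4BP6 changed by log2 0.25 (adjusted p = 0.0132). EIF4H was at 671, 672 and 667 CPM and at 606, 583 and 575 CPM, a small fall beyond a narrow spread (log2 −0.19, SE 0.04, adjusted p = 0.0095).

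**Figure D3:**
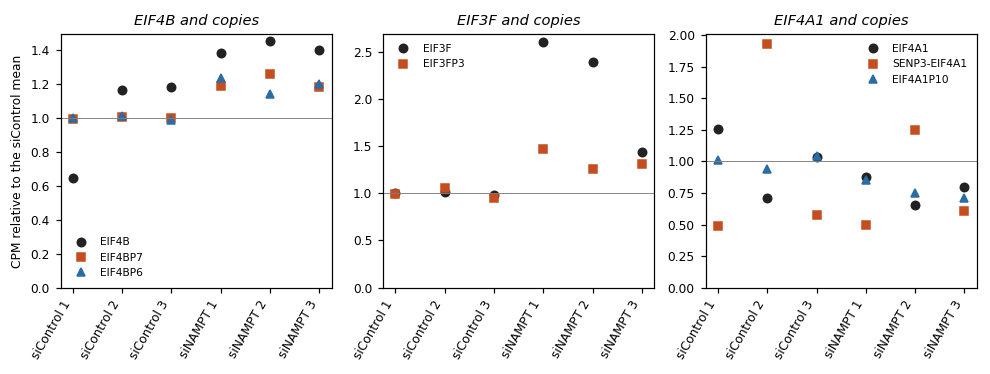
Level of EIF4B, EIF3F and EIF4A1 and of copies that can share their reads, in each library (x axis), relative to the mean of the 3 siControl libraries (y axis, CPM ratio). EIF4B was low in siControl replicate 1 with its pseudogenes near 1, and EIF4A1 and SENP3-EIF4A1 moved in opposite directions between replicates.

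The cap-binding protein itself was not called. EIF4E was at 29.9, 32.3 and 34.1 CPM in siControl and 26.2, 36.3 and 32.2 CPM in siNAMPT, with overlapping groups (log2 −0.02, SE 0.12, adjusted p = 0.8951). About as many reads were counted for its pseudogene EIF4EP2 (34.0 and 31.0 CPM on average). EIF4E2, also known as 4EHP, a cap-binding protein that does not bind eIF4G and represses translation with GIGYF2, was at 62.9, 61.8 and 74.7 CPM and at 81.2, 85.9 and 81.4 CPM. It rose (log2 0.32, SE 0.09, adjusted p = 0.0199), but missed the threshold when siControl replicate 1 (adjusted p = 0.0668), siControl replicate 2 (0.0706) or siNAMPT replicate 2 (0.0604) was left out. EIF4E3 stayed between 4.01 and 4.65 CPM in all libraries. EIF4E1B, a form known from the germ line, had no count in any library, which allows up to 0.132 to 0.152 CPM at a floor of 3 counts per library.

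The 4E-binding proteins changed in opposite directions. EIF4EBP1, the best known mTORC1 substrate among them, was at 84.5, 86.4 and 81.7 CPM in siControl and 64.0, 52.9 and 59.0 CPM in siNAMPT. It fell by 30.4% (log2 −0.52, SE 0.08, adjusted p = 0.0019). EIF4EBP2 was at 236, 243 and 238 CPM and at 295, 323 and 301 CPM, and rose (log2 0.36, SE 0.05, adjusted p = 0.0015). For both genes the groups were clearly apart. Per kilobase, the ratio of EIF4EBP2 to EIF4EBP1 was 0.393, 0.395 and 0.409 in siControl and 0.649, 0.86 and 0.716 in siNAMPT. The siNAMPT ratios were all above the siControl ratios. The sum of both genes over EIF4E, on the same scale, was 4.03 ± 0.312 in siControl and 3.6 ± 0.738 in siNAMPT (SD, n = 3 each). That ratio overlapped between the groups. EIF4EBP3 was below 1 CPM in every library and not tested, and it overlaps the readthrough gene ANKHD1-EIF4EBP3 (37.6 to 67.4 CPM). EIF4ENIF1, which carries eIF4E into the nucleus, had log2 0.08 and was not called.

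Of the 5 late factors, those of subunit joining and of the hypusine-bearing eIF5A family, 4 fell, beside 21.9% of all genes tested. A count over so few genes, some of which can share reads, describes these members only. EIF5A2 had the largest change of all members. This minor paralog of EIF5A was at 18.9, 22 and 23.6 CPM in siControl and 4.5, 5.08 and 4.58 CPM in siNAMPT. Its level was 78.0% lower and the groups were far apart (log2 −2.19, SE 0.12, adjusted p = 2.61e-05). EIF5A, which helps ribosomes through difficult peptide bonds, was at 627, 577 and 568 CPM and at 471, 430.3 and 443 CPM (log2 −0.40, SE 0.06, adjusted p = 0.0015). The near-identical EIF5AL1 (log2 −0.43, adjusted p = 0.0014) and the pseudogene EIF5AP4 (log2 −0.46, adjusted p = 0.0028) fell with it, and reads of these genes cannot be told apart with certainty. EIF5B, the GTPase that joins the large subunit, was at 87.5, 79.7 and 104 CPM and at 59.3, 70.6 and 73.9 CPM. The groups did not overlap (log2 −0.41, SE 0.12, adjusted p = 0.0279), but 4 of the 6 fits that left out a library lost the call (adjusted p 0.0539 to 0.0748: without siControl replicate 1 or 3, or siNAMPT replicate 1 or 2). EIF6, which keeps the subunits apart, was at 268, 271 and 197 CPM and at 239, 175 and 200.4 CPM, with overlap (log2 −0.26, SE 0.15, adjusted p = 0.2002). Without siControl replicate 3 it was called lower (log2 −0.40, adjusted p = 0.0478).

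**Figure D4:**
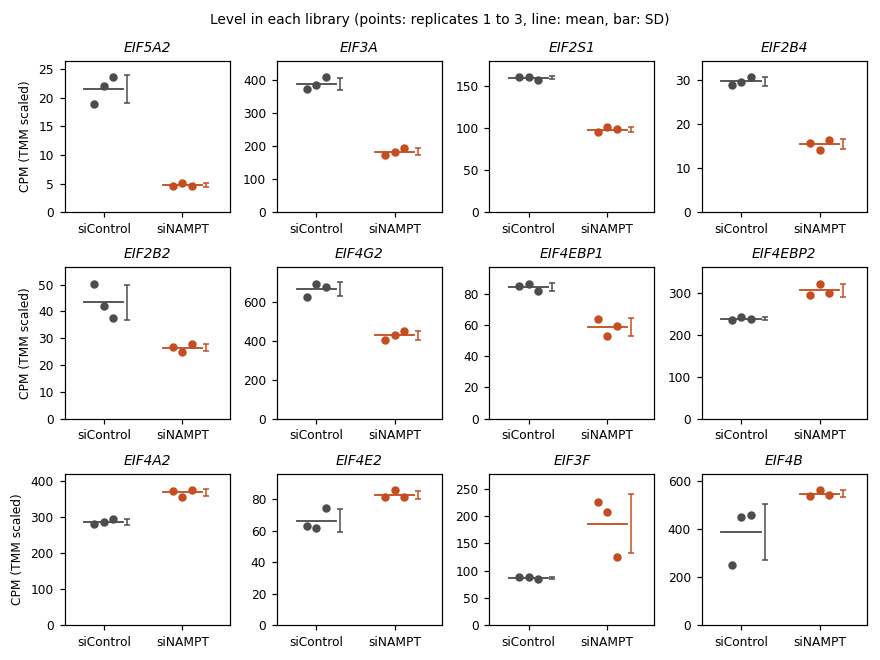
CPM (y axis from 0) of 12 initiation factor genes in each library, with the mean as a line and the SD as a bar beside the 3 points of each group. EIF5A2, EIF3A, EIF2S1 and EIF2B4 show wide gaps between groups, while siNAMPT replicate 3 of EIF3F and siControl replicate 1 of EIF4B stand apart from their groups.

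Other genes of translation were read from lists for comparison. Of 76 genes 75 were tested, of which 10 rose, 24 fell and 41 were not called, with a median log2 fold change of −0.12, close to that of the initiation factors. Over all genes tested 20.8% were higher and 21.9% lower, and the counts of the lists below are descriptions to be read beside these shares. Genes that act directly beside the initiation factors went both ways, with 5 of 23 higher and 9 lower. PDCD4, an inhibitor that binds eIF4A, rose from 42.0, 42.9 and 45.1 CPM to 91.3, 96.9 and 106 CPM (log2 1.18, adjusted p = 3.91e-05). PAIP2B, which displaces the poly(A)-binding protein, and CTIF, a partner of the nuclear cap-binding complex, each rose by log2 0.76. NCBP2, a subunit of that cap-binding complex, changed by −0.88, GIGYF2, the partner of EIF4E2, by −0.71, and the helicase DDX3X by −0.64.

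Of the 10 genes that control eIF2 phosphorylation or respond to it, 2 rose, 2 fell and 6 were not called. ATF4, the transcription factor translated when eIF2 is phosphorylated, was at 472, 466 and 456 CPM in siControl and 328, 311 and 325 CPM in siNAMPT, lower without overlap (log2 −0.53, adjusted p = 1.29e-04). PPP1R15A, the inducible subunit of the phosphatase that restores eIF2, fell as well (log2 −0.32, adjusted p = 0.0054), while the constitutive PPP1R15B had log2 −0.12 and was not called. OMA1, the protease that relays mitochondrial stress to HRI, rose by log2 0.63 (adjusted p = 0.0035). IMPACT, an inhibitor of GCN2, rose by log2 0.46 but lost the call without siControl replicate 2 or siNAMPT replicates 2 or 3 (adjusted p 0.0501 to 0.0572). Transcript levels say nothing of the phosphorylation of eIF2, which was not measured.

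In the mTORC1 and MNK list 1 of 17 genes rose and 6 fell. MTOR, the kinase of mTORC1, was at 124, 127 and 124 CPM in siControl and 63.3, 58.7 and 62.3 CPM in siNAMPT, a wide gap (log2 −1.03, adjusted p = 2.67e-05). MKNK2, which phosphorylates eIF4E, rose from 61.6, 70.1 and 51.3 CPM to 132, 119 and 133 CPM (log2 1.07, adjusted p = 3.66e-04). RPS6KA3, a kinase of the RSK family, fell (log2 −0.89, adjusted p = 0.0016). KLHL25, which targets unbound 4E-BP1 for degradation, had log2 −0.58 and lost its call in 5 of the 6 fits without a library (adjusted p 0.0740 to 0.1044, called only without siNAMPT replicate 1). Of 13 elongation genes 1 rose, EEF2K, the kinase that inhibits eEF2 (log2 0.53), and 4 fell, EEF2KMT (−0.75), EEF1E1 (−0.52), EEFSEC (−0.35) and EEF2. Of 9 tested termination and recycling genes DENR rose (0.34), and HBS1L (−0.69), PELO (−0.44) and ETF1 (−0.21) fell. EEFSEC lost its call in 5 fits without a library (adjusted p 0.0545 to 0.1068, called only without siNAMPT replicate 1) and ETF1 in 4 (0.0548 to 0.0726, called only without siControl replicate 1 or siNAMPT replicate 3). None of 3 mitochondrial initiation factor genes was called.

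**Figure D5:**
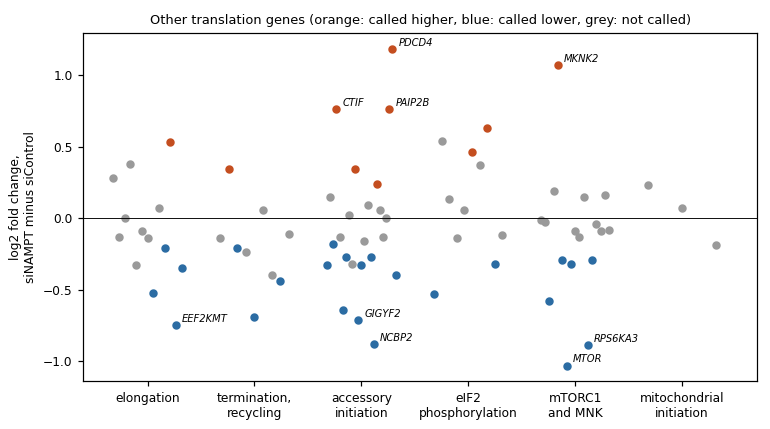
Log2 fold change (y axis) of the 75 tested genes of 6 other translation lists (x axis), 1 point per gene, coloured by edgeR call, with names for called genes past 0.69 in either direction. PDCD4 at 1.18 and MKNK2 at 1.07 are highest and MTOR at −1.03 is lowest.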

How the data were processed

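RNA-seq libraries (paired 150-base reads on an Illumina NovaSeq, per the labels) were deposited as 1 table with a whole-number count and an FPKM value per gene and library. The authors' raw counts were used for all tests. The authors' deposited FPKM served only as an alternative. The submitters' processing notes name GRCh38 and mm10 as builds, while for the aligner, counter and strand setting nothing is given in the sources used here. Of the gene identifiers 98.5% are in GENCODE 29, and 94.8% of the shared ones have the same position there (52 of the 55 members).

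The FPKM length matched the sum of all distinct exons of a gene, overlaps counted repeatedly, within 1% for 86.6% of 9809 genes with over 200 counts. Levels between genes were therefore set as CPM per kilobase of the median length of complete GENCODE basic coding transcripts. That median can be far from the form expressed, so only a few such ratios are given.

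Counts were filtered with filterByExpr, scaled by TMM (factors 0.988 to 1.016) and tested with edgeR 4.0.16 (quasi-likelihood, two-sided, no covariates) in R 4.3.3 over all 15213 genes that passed, with Benjamini-Hochberg adjustment and a threshold of 0.05. The script was tested on simulated data. There it called 0% of 1.25-fold, 32% of 1.5-fold, 82% of 2-fold and 100% of 4-fold changes. Of its 121 calls 14 were false. The simulated data held far fewer changed genes than were called here, so these shares do not carry over directly. Alternatives were DESeq2 1.42.0, limma 3.58.1 on log2(FPKM + 1) and log2(FPKM + 0.1) (genes at 1 FPKM or more in 3 or more libraries), other scalings, no filter, each library left out, and the replicate number as a block. Adding copies to their parent gene was chosen after the data were seen. Same-numbered libraries deviated together with correlations of 0.07, 0.01 and 0.05, so the numbers were not taken as pairs.

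Members with the largest changes, compared paralogs, eIF2 kinases and up to 3 genes each way from each other list were named, and pseudogenes, readthrough and antisense genes were named after their values were seen. The members and lists were chosen with earlier results of these data known. Counting limits cover counting error only.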

Additional observations from a re-analysis of the deposited data

How the results depend on the processing

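The 22 called initiation factors kept their direction and call with DESeq2, limma on FPKM with either pseudocount, both other scalings, no filter on low counts, copies added and the replicate block. Of them 17 were also called in all 6 fits that left out a library, and EIF1AD, EIF2B3, EIF2AK1, EIF4E2 and EIF5B were not. Leaving out a library gave 3 to 6 higher and 15 to 18 lower initiation factors, 8 to 12 higher and 17 to 22 lower other translation genes, 2461 to 2858 higher and 2684 to 3028 lower genes in all, and −2.64 to −2.55 for NAMPT. The replicate block gave 4 higher and 20 lower initiation factors and 3063 higher and 3273 lower genes. It called EIF1 (adjusted p = 0.0283) and EIF4A1 (0.0277) and changed no other member's call, and 5 of the 6 libraries lay closest to their own number. Without members that have near-identical copies or readthrough, 3 were higher and 15 lower. Scaling moved the median of all genes by at most 0.02.

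The direction turned in uncalled members near zero, and the cause was not tested. With library totals only, the log2 fold change was 0.02 for EIF2A, 0.01 for EIF2AK4, 0.00 for EIF3CL and 0.02 for EIF3E, and EIF3E was at 0.00 with RLE factors. With limma on either FPKM scale EIF2A was at 0.01, EIF2AK4 at 0.01, EIF3CL at 0.00 and EIF3E at 0.02. Over the fits that left out a library the log2 fold change ran from −0.19 to 0.29 for EIF5, −0.03 to 0.04 for EIF2A, −0.16 to 0.01 for EIF2AK3, −0.04 to 0.01 for EIF2AK4, −0.06 to 0.00 for EIF3CL, −0.08 to 0.03 for EIF3D, −0.04 to 0.06 for EIF3E, −0.14 to 0.10 for EIF4E, −0.07 to 0.04 for EIF4E3 and −0.01 to 0.16 for EIF4ENIF1. EIF4E3 and EIF2S3B did not pass the FPKM filter and have no limma value. EIF2S3B was uncalled with a standard error of 0.61 and siControl libraries from 0.423 to 4.01 CPM. EIF4EBP3 had too few counts to be tested.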
